A study of Mus musculus with 12 samples.

Results

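Described here are 8 genes of the lung mesenchyme, the connective tissue between the epithelium and the vessels: the transcription factor genes *Tcf21*, *Tbx4*, *Tbx5* and *Foxf1*, and the genes *Plin2*, *Lpl*, *Inmt* and *Gyg* of lipid, methyl and glycogen metabolism. They were chosen by symbol, and all 8 were found among the 16152 genes of the deposited count table. The RNA came from whole lungs of mice of the C57BL/6 strain, males and females, with no treatment or mutation named, taken in embryonic life (E15.5 and E18.5, counted in days) and in postnatal life (P5 and P8), with 3 replicates at each age. The replicates of an age came from 1 litter, so litter and age cannot be told apart. The p-values given below measure the spread between these lungs only.

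*Tcf21*, *Foxf1*, *Tbx4* and *Tbx5* encode DNA-binding proteins by which the mesenchyme of the early lung bud is known, and through signals such as *Fgf10* and *Wnt2* this tissue directs the branching of the airways. Lipofibroblasts are mesenchymal cells of the alveolar wall that store neutral lipid in droplets and lie next to alveolar type 2 cells, the makers of surfactant. The droplets are coated by perilipin 2, the product of *Plin2*, and fatty acids reach the cells from lipoproteins cut by lipoprotein lipase, the product of *Lpl*.

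The libraries held between 41337443 and 53901957 reads on the counted genes. Levels are given as deposited, in CPM, the reads of a gene scaled to 1000000 mapped reads of the library. Several libraries also held markers of tissues that lie beside the lung. The summed level of 5 adipocyte markers (*Adipoq*, *Cfd*, *Lep*, *Ucp1* and *Cidea*) lay between 0.144 and 1.29 CPM in the 6 embryonic libraries and was 0.257, 18.8 and 120 CPM in P5 replicates 1, 2 and 3, and 319, 650 and 13.4 CPM in P8 replicates 1, 2 and 3. P8 replicates 1 and 2 also had the most RNA of 5 thymocyte markers, at 126 and 248 CPM against 9.7 in P8 replicate 3. Cardiomyocyte markers summed to 933 and 1170 CPM in E15.5 replicates 1 and 2, against 52.1 in replicate 3. Values without some of these libraries are given beside several, but not all, of the comparisons that use them. Markers of the mesenchyme itself were abundant throughout. The sum of 6 such genes, collagen genes among them, was between 4412 and 5385 CPM in the libraries from E15.5 to P5 and between 6905 and 7383 at P8. The genes of this sum did not move together. Mean *Dcn* went from 81.5 CPM at E18.5 to 29.6 at P5, and *Pdgfrb* from 151.7 to 230.5. From P5 to P8 mean *Col1a1* went from 665 to 1302 CPM, while *Vim* went from 1337 to 1304.

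From E18.5 to P5 *Tcf21* rose to about 2.1 times its former level and *Foxf1* to 1.72 times, *Tbx5* fell, and *Tbx4* did not pass the test. *Inmt* went from near 0 to 9.11 ± 0.355 CPM (SD, n = 3), *Lpl* rose 4.2-fold, and *Plin2* and *Gyg* rose by 1.8 and 1.61 times. A gene is said to have risen or fallen where the false discovery rate (FDR) of edgeR's quasi-likelihood test, over all 15994 genes tested, was under 0.05. By this rule 6 of the 8 genes rose, where 35.4% of all genes tested did, and 1 fell, where 35.7% did. A change with an absolute log2 fold change above 1 besides was found for 3 of the 8, *Inmt*, *Lpl* and *Tcf21*, and for 26.8% of all genes. The P5 and E18.5 libraries did not overlap for 7 of the 8 genes, a share near that of 77.1% over all genes tested. Without P5 replicate 3 and P8 replicates 1 and 2, the libraries with most adipocyte markers, the same counts of genes rose, fell and passed both cutoffs, and the log2 fold change was 2.07 for *Lpl*, 0.93 for *Plin2* and 1.08 for *Tcf21*. With all libraries the median log2 fold change of the 8 was 0.81, and that of all genes was 0.00. As the RNA came from whole lungs, more cells of a type and more RNA per cell cannot be told apart here.

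**Figure D1:**
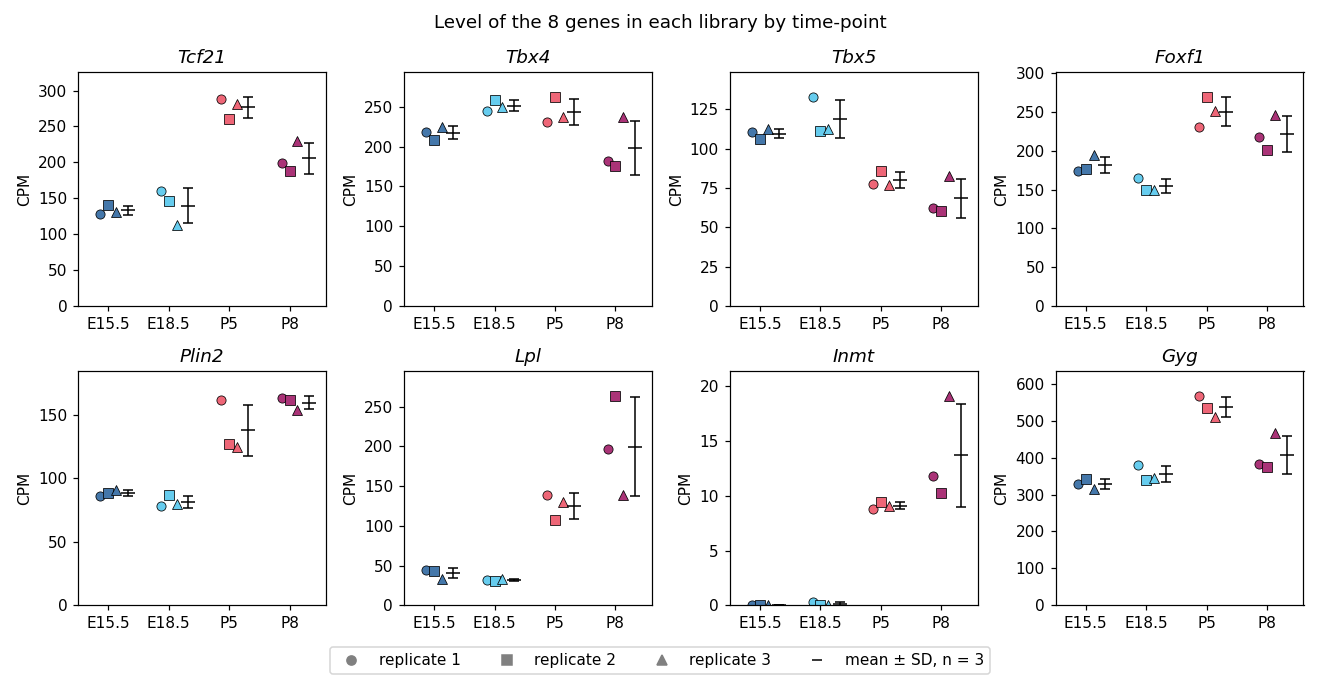
Level of each gene in CPM (vertical axis, from 0) in the 12 libraries by time-point (horizontal axis). Symbols mark the replicates, and the bar beside them is the mean ± SD of 3. *Inmt* lies near 0 at E15.5 and E18.5 and above 8 CPM in all postnatal libraries, and *Tbx4* spans from 175 to 262 CPM over the whole series.

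*Tcf21* (ENSMUSG00000045680) encodes a basic helix-loop-helix factor needed for the growth of the lung mesenchyme and marks the fibroblasts that become lipofibroblasts. It lies on chromosome 10 at 22817281-22820174 of GRCm38, on the minus strand. Its level was 128, 140 and 132 CPM in E15.5 replicates 1 to 3, 160, 146 and 113 at E18.5, 288, 260 and 281 at P5, and 199, 187 and 230 at P8. All P5 libraries stood above all others, and the P8 libraries stood between P5 and the embryonic ages, which overlapped. Between E18.5 and P5 the log2 fold change was 1.07 (SE 0.12, FDR = 5.1e-06). It lay just past the cutoff of 1, and without E18.5 replicate 3, the lowest of its age, it was 0.93. A gene annotated as antisense, *Gm10824*, spans *Tcf21* without sharing exonic bases with it. Whether the counting used the strand is not given in the sources used here.

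*Foxf1* (ENSMUSG00000042812), on chromosome 8 at 121084386-121088144 of the plus strand, encodes a forkhead factor of the splanchnic mesenchyme and, in the lung, of capillary endothelial cells. It was at 174, 176 and 194 CPM in the E15.5 libraries, 165, 149 and 150 at E18.5, 231, 269 and 251 at P5, and 218, 200 and 246 at P8. Every postnatal library was above every embryonic one. Between E18.5 and P5 the log2 fold change was 0.78 (SE 0.08, FDR = 3.9e-06). The sum of 4 endothelial markers moved with it, from between 936 and 1048 CPM at E18.5 to between 1944 and 2065 at P5, and the part of endothelial cells in the rise was not tested. *Fendrr*, a long noncoding RNA gene whose start lies 1276 bases from that of *Foxf1* on the opposite strand, was at 26.0, 26.1 and 25.1 CPM at E18.5 and at 38.5, 52.6 and 53.7 at P5. Its log2 fold change was 0.99 (SE 0.21, FDR = 0.0011), so both genes of the pair rose. A gene annotated on the same strand, *Gm20388*, spans *Foxf1* without sharing exonic bases with it. A miRNA gene on the opposite strand, *Gm27530*, shares 98 exonic bases with *Foxf1*, and its part in the count was not tested.

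The T-box genes *Tbx4* and *Tbx5* act together in the lung bud. *Tbx5* (ENSMUSG00000018263), on chromosome 5 at 119832668-119885219 of the plus strand, was at 110, 106 and 112 CPM in the E15.5 libraries, 133, 111 and 112 at E18.5, 77.6, 85.5 and 77.0 at P5, and 62.2, 60.1 and 82.7 at P8. All postnatal libraries were below all embryonic ones. Between E18.5 and P5 the log2 fold change was -0.48 (SE 0.11, FDR = 0.0016). *Tbx5* is also a gene of the heart, and the 112 CPM at E15.5 were those of replicate 3, with the fewest cardiomyocyte markers of its age. These markers summed to between 51.3 and 83.4 CPM at E18.5, 91.1 and 228 at P5 and 93.5 and 313.5 at P8. At both postnatal ages replicate 2 had most of them. It was the highest of its age in *Tbx5* at P5 and the lowest at P8. The part of heart RNA in the level of *Tbx5* was not tested. *Tbx4* (ENSMUSG00000000094), on chromosome 11 at 85886422-85916097 of the plus strand, was at 219, 208 and 225 CPM in the E15.5 libraries, 245, 258 and 250 at E18.5, 230.2, 262 and 237 at P5, and 182, 175 and 237 at P8. The E18.5 and P5 libraries overlapped, and the log2 fold change between them was 0.04 (SE 0.09, FDR = 0.71), negative with library size only.

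*Inmt* (ENSMUSG00000003477) encodes indolethylamine N-methyltransferase, which moves methyl groups onto small amines and is known for its abundance in lung. It lies on chromosome 6 at 55170626-55175043 of the minus strand. The libraries held 2, 3 and 1 reads of it at E15.5 and 15, 3 and 0 at E18.5, then 546, 459 and 553 at P5 and 575, 628 and 1160 at P8. In CPM the P5 libraries had 8.77, 9.48 and 9.09, and the P8 libraries 11.8, 10.3 and 19.1. The 6 reads of E15.5 together stand for 0.0367 CPM, with an exact Poisson interval at 95% of 0.0135 to 0.0798, and the 18 reads of E18.5 for 0.116 CPM, with an interval of 0.0686 to 0.183. Such intervals cover counting error only. The ratio of the summed reads, per mapped read, was 78.5 from E18.5 to P5 (exact 95% interval of the counts 49.5 to 132.8), and edgeR's log2 fold change was 6.34 (SE 0.58, FDR = 9.0e-07). E18.5 replicate 1 supplied 15 of the 18 reads, and without it the log2 fold change was 8.32 and the ratio 323 (interval 110.5 to 1570).

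*Lpl* (ENSMUSG00000015568), on chromosome 8 at 68880491-68907448 of the plus strand, encodes the lipase that frees fatty acids from the triglycerides of lipoproteins at the capillary wall. It was at 45, 43.7 and 33.6 CPM in the E15.5 libraries, 32.1, 30.7 and 32.5 at E18.5, 139, 108 and 130 at P5, and 196, 263 and 139 at P8. The postnatal libraries were all above the embryonic ones, and the spread was greatest at P8. Between E18.5 and P5 the log2 fold change was 2.07 (SE 0.19, FDR = 1.1e-06). Adipocytes also express *Lpl*. In P5 replicates 1, 2 and 3 the summed adipocyte markers were at 0.257, 18.8 and 120 CPM, with *Adipoq* and *Cfd* at 0 in replicate 1, beside the 139, 108 and 130 CPM of *Lpl*. The part of adipocytes in the level of *Lpl* was not tested.

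*Plin2* (ENSMUSG00000028494), on chromosome 4 at 86648386-86670060 of the minus strand, was at 86.3, 88.7 and 90.9 CPM in the E15.5 libraries, 78.1, 86.9 and 80.1 at E18.5, 161, 128 and 125 at P5, and 163, 162 and 154 at P8. The embryonic ages overlapped, and each postnatal library was above them. Between E18.5 and P5 it changed by a log2 fold of 0.85 (SE 0.10, FDR = 8.7e-06). Alveolar macrophages also carry lipid droplets and *Lpl* RNA, and the sum of 5 of their markers was between 15.6 and 17.7 CPM at E18.5 and 177, 118 and 104 CPM in P5 replicates 1, 2 and 3. The P5 library with most of these markers, replicate 1, was also the highest of its age in *Plin2* and *Lpl*. The sum of 4 type 2 cell markers moved with both genes too, from at most 2111 CPM at E18.5 to at least 14390 at P5. The part of either cell type in the rise of *Plin2* and *Lpl* was not tested.

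*Gyg* (ENSMUSG00000019528), on chromosome 3 at 20122084-20155317 of the minus strand, encodes glycogenin, the protein that primes new glycogen chains. It was at 329, 343 and 314 CPM in the E15.5 libraries, 381, 340.3 and 346 at E18.5, 567, 534 and 511 at P5, and 382, 376 and 468 at P8. The P5 libraries stood above all others. Between E18.5 and P5 the log2 fold change was 0.68 (SE 0.09, FDR = 2.1e-05).

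Promoter sequences, from 250 bases before to 50 after the start site, were held by the RefSeq table (GRCm38.p6) for 5 of the 8 genes, *Gyg*, *Plin2*, *Inmt*, *Tcf21* and *Tbx4*. There was no entry for *Tbx5*, *Foxf1* or *Lpl*. Shown are *Inmt* and *Plin2*, which rose from E18.5 to P5, and *Tbx4*, which did not pass the test. Capitals mark the motifs found on either strand, namely the E-box CAGCTG, the half-site of nuclear receptors, which reads AGGTCA, and the TATA box, which reads TATAAA, with the last 2 also sought as their reverse complements. The windows lie at chr6:55174941-55175240 (minus strand) for *Inmt*, chr4:86670010-86670309 (minus strand) for *Plin2* and chr11:85896515-85896814 (plus strand) for *Tbx4*, the last within the longer annotated *Tbx4* gene.
Inmt: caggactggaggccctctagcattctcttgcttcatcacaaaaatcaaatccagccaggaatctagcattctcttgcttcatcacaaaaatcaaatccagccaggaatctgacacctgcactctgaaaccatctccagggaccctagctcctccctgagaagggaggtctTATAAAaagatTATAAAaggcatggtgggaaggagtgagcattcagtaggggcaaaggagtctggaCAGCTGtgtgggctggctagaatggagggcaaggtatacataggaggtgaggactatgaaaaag
Plin2: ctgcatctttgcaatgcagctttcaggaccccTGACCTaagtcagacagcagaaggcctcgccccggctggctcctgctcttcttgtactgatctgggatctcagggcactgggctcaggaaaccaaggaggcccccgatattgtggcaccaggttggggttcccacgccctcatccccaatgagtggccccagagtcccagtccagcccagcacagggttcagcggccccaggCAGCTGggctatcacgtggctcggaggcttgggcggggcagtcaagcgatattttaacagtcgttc
Tbx4: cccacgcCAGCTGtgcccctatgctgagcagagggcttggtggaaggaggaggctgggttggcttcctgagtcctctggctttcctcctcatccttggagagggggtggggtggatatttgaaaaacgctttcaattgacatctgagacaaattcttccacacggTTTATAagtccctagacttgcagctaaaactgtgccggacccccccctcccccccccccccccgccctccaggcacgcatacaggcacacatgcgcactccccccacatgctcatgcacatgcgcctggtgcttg
Start sites are those of the RefSeq table. The annotated *Inmt* gene, which on the minus strand begins at 55175043, starts upstream of the start site used here. The E-box began 14 bases before the start site in *Inmt*, 16 bases before it in *Plin2* and 243 bases before it in *Tbx4*. Of the 32851 promoters of the table, 16.3% hold this motif. The half-site, in *Plin2* only among the 5, is held by 16.3% of promoters. The TATA box was at 2 places in *Inmt*, 80 and 69 bases before this start site. On the other strand it was 85 bases before the start site in *Tbx4*, and 13.6% of promoters hold it. None of the 5 windows held the T-box core GGTGTGA (3.98% of promoters), the forkhead motif TGTTTAC (3.65%), the GLI motif GACCACCC (0.807%) or DR1, the half-site repeated after 1 base (0.0396%). A match of letters is a description and not a binding site.

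**Figure D2:**
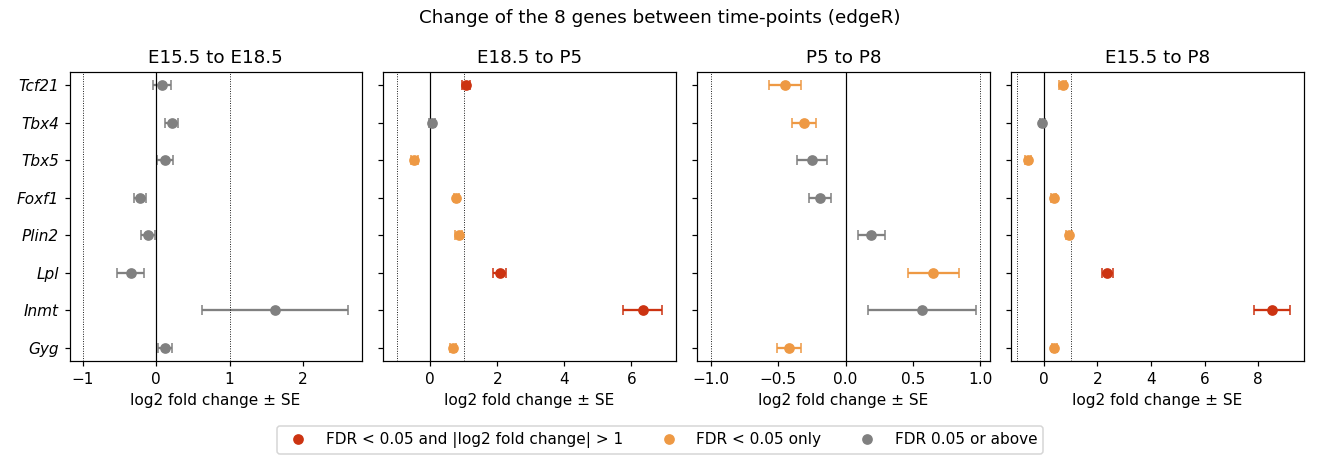
Log2 fold change ± SE (horizontal axis, a scale of its own in each panel) of the 8 genes (rows) in 4 comparisons of time-points, from 1 edgeR fit of 12 libraries with n = 3 per time-point. Dotted lines mark -1 and 1, and colour shows which thresholds were passed. From E18.5 to P5, 7 of the 8 passed the FDR threshold, and in the step before it none did.

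Between the embryonic ages, none of the 8 genes passed the FDR threshold, where 11.6% of all genes rose and 9.87% fell, and none was past both cutoffs, where 3.04% of all genes were. At an unadjusted p under 0.05 there were 2, *Tbx4*, with a log2 fold change of 0.21 (SE 0.09, FDR = 0.12), and *Foxf1*, with -0.22 (SE 0.08, FDR = 0.076). DESeq2 and limma also gave none past the FDR threshold. The libraries of these ages did not overlap for 3 of the 8 genes, *Tbx4*, *Foxf1* and *Lpl*, against 38.1% of all genes. *Tbx4* passed it, at 0.22 (FDR = 0.029), when only the libraries of these ages were fitted, at 0.23 (FDR = 0.021) without P8 replicates 1 and 2, and without P8 replicate 3 (FDR = 0.019). *Inmt* had a log2 fold change of 1.62 (SE 1.0, FDR = 0.26), which turned to -0.36 without E18.5 replicate 1.

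From P5 to P8, *Lpl* rose by 0.65 on the log2 scale (SE 0.19, FDR = 0.032), 1 gene of the 8 where 9.75% of all genes rose. *Tcf21* changed by -0.45 (SE 0.12, FDR = 0.024), *Gyg* by -0.42 (SE 0.09, FDR = 0.010) and *Tbx4* by -0.31 (SE 0.09, FDR = 0.039), 3 of the 8 where 8.21% of all genes fell. None of the 8 was past both cutoffs, as were 2.96% of all genes. *Inmt* (0.57, FDR = 0.34), *Plin2* (0.19, FDR = 0.20), *Foxf1* (-0.19, FDR = 0.13) and *Tbx5* (-0.25, FDR = 0.14) did not pass the test, and 6 of the 8 were under an unadjusted p of 0.05. The groups did not overlap for 4 of the 8 genes, against 37% of all genes.

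P8 replicates 1 and 2 held most adipocyte and thymocyte marker RNA, and the 4 changes were smaller without these libraries. The part of these tissues in the 4 changes was not tested. In each of *Tcf21*, *Gyg*, *Tbx4*, *Tbx5*, *Foxf1* and *Inmt*, P8 replicates 1 and 2 were both below replicate 3, and in *Lpl* and *Plin2* both were above it. The sum of 4 mesothelial markers was between 105 and 173 CPM at P5 and between 442 and 491 in all 3 P8 libraries, and its part in these changes was not tested. *Lpl* followed the order of the adipocyte markers at P8, highest in replicate 2, then replicate 1, then replicate 3, whose 139 CPM was that of the highest P5 library. Without P8 replicates 1 and 2, *Lpl* changed by 0.12 (SE 0.17, FDR = 0.78), *Tcf21* by -0.29 (SE 0.17, FDR = 0.40), *Gyg* by -0.23 (SE 0.11, FDR = 0.30) and *Tbx4* by -0.06 (SE 0.08, FDR = 0.77). None of the 8 genes then passed edgeR's FDR threshold or an unadjusted p of 0.05, and of all genes only 1.35% passed the FDR threshold in either direction in this fit, in which P8 replicate 3 was alone and taken to vary like the other groups. All 4 changes were also lost to the FDR threshold without P8 replicate 2 alone (*Lpl* 0.41, FDR = 0.14, *Tcf21* -0.37, FDR = 0.10, *Gyg* -0.35, FDR = 0.052, and *Tbx4* -0.22, FDR = 0.16). Leaving out P8 replicate 1 ended those of *Lpl*, *Tcf21* and *Tbx4*, P5 replicate 3 the same 3 genes, P5 replicate 1 those of *Tcf21* and *Tbx4*, P5 replicate 2 those of *Lpl* and *Tbx4*, and E15.5 replicate 1 or E18.5 replicate 2 that of *Tbx4*. In the other direction, *Tbx5* (-0.41, FDR = 0.0085) and *Foxf1* (-0.28, FDR = 0.035) passed without P8 replicate 3, and *Plin2* (0.34, FDR = 0.013) without P5 replicate 1. Of all genes, 2872 of 15994 passed with all libraries, 1231 of 15866 without P8 replicate 2 and 1401 of 15874 without P8 replicate 1. Without P5 replicate 3 it was 1202 of 15957, and without P8 replicate 3 it was 3759 of 15918.

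**Figure D3:**
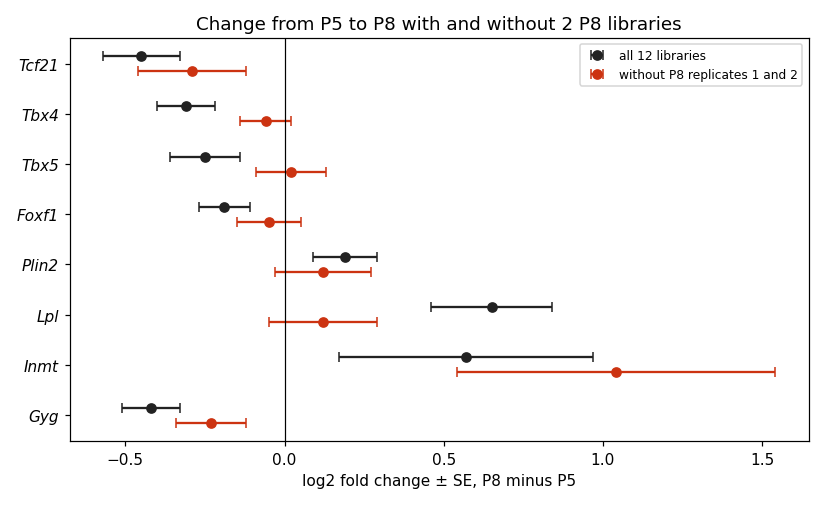
Log2 fold change from P5 to P8 ± SE (horizontal axis) of the 8 genes (rows), in black with all 12 libraries and in red without P8 replicates 1 and 2. Without them *Lpl* moves from 0.65 to 0.12 and *Tbx4* from -0.31 to -0.06.

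**Figure D4:**
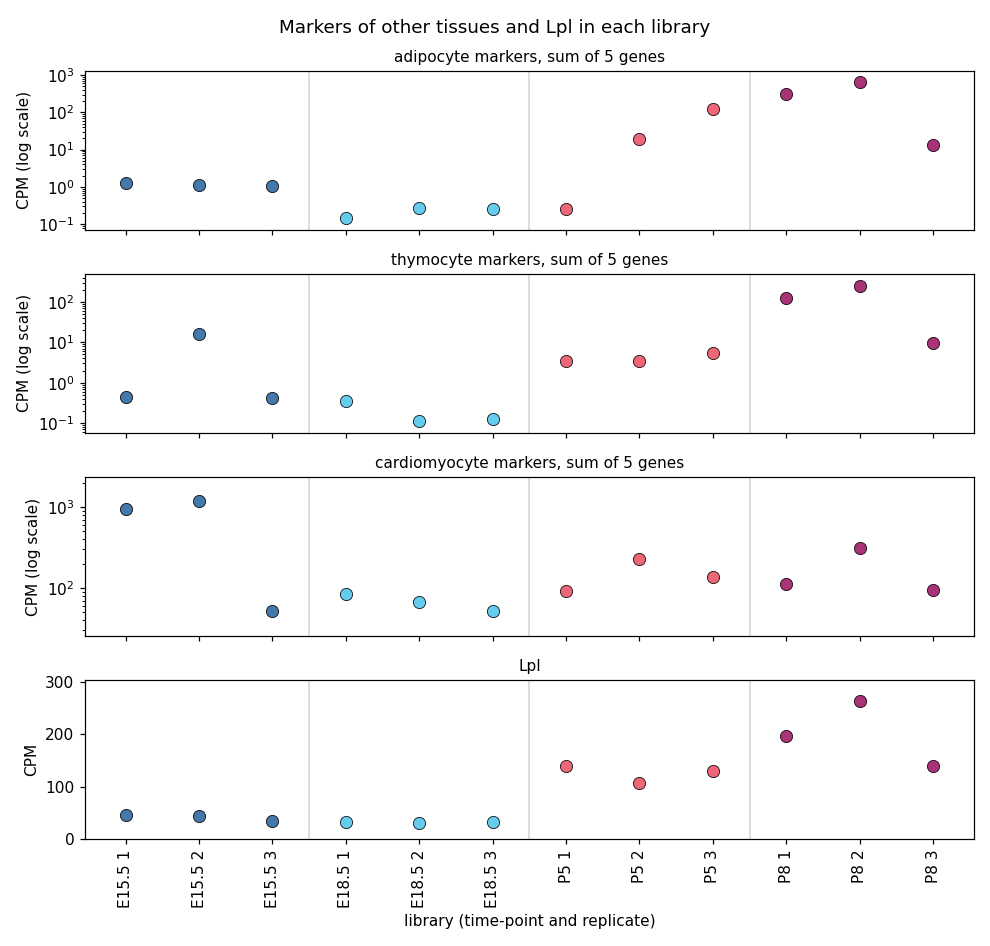
Summed CPM of 5 markers each of adipocytes, thymocytes and cardiomyocytes (3 upper panels, log scale) and CPM of *Lpl* (lowest panel, linear scale from 0) in each of the 12 libraries (horizontal axis). Adipocyte markers are highest in P8 replicate 2, at 650 CPM, as is *Lpl*, at 263 CPM, while P5 replicate 1 has 0.257 CPM of these markers and 139 CPM of *Lpl*.

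Over the whole span from E15.5 to P8, 6 of the 8 genes rose, where 37.6% of all genes did, and 1 fell, where 38.7% did. *Inmt* (8.53, SE 0.67, FDR = 1.6e-07) and *Lpl* (2.37, SE 0.20, FDR = 2.4e-07) were past both cutoffs, 2 of the 8 against 32.3% of all genes, and 7 of the 8 did not overlap between these ages, against 77.1%. The summed reads of *Inmt* per mapped read were 377 times higher at P8 (exact 95% interval of the counts 173 to 1030). *Plin2* rose by 0.93 (FDR = 3.0e-06), *Tcf21* by 0.70 (FDR = 1.6e-04), *Gyg* by 0.39 (FDR = 0.0016) and *Foxf1* by 0.36 (FDR = 0.0017), and *Tbx5* fell by 0.61 on the log2 scale (FDR = 2.6e-04). *Tbx4*, at -0.06 (FDR = 0.59), did not pass the test. Without P8 replicates 1 and 2 it was at 0.20 and passed it (FDR = 0.048), and without P8 replicate 3 it passed it the other way, at -0.20 (FDR = 0.017). Without P8 replicates 1 and 2, *Tbx5* fell by 0.33 on the log2 scale (FDR = 0.027). In the same fit *Lpl* rose by 1.85 (FDR = 1.9e-06), *Inmt* by 9.01 (FDR = 9.3e-07), *Plin2* by 0.87 (FDR = 2.7e-04), *Tcf21* by 0.86 (FDR = 5.7e-04), *Gyg* by 0.58 (FDR = 4.8e-04) and *Foxf1* by 0.52 (FDR = 8.2e-04). Without E15.5 replicates 1 and 2, which held most cardiomyocyte marker RNA, *Tbx5* changed by -0.65 (FDR = 0.0039), and *Foxf1*, at 0.26, no longer passed (FDR = 0.082).

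By their mean levels the 8 genes had 6 different orders of the time-points. *Tcf21* and *Gyg* shared one, E15.5, E18.5, P8 and then P5, in which the 2 lowest ages did not differ (FDR = 0.69 and 0.36) and the others did. *Plin2* and *Lpl* rose in the order E18.5, E15.5, P5 and P8, and in *Plin2* the 2 embryonic ages (FDR = 0.46) and the 2 postnatal ages (FDR = 0.20) did not differ past the threshold. In *Tbx5* the order was P8, P5, E15.5 and E18.5, and only P5 and E15.5 among its neighbours differed (0.36 on the log2 scale, FDR = 0.0096). *Foxf1* was lowest at E18.5, then E15.5, P8 and P5, where only E15.5 and P8 differed among neighbours (FDR = 0.0017). *Inmt* followed age, and its one step past the threshold was from E18.5 to P5. *Tbx4* went from P8 through E15.5 and P5 to E18.5, and of these steps that from E15.5 to P5 passed (0.25, FDR = 0.026). In the remaining pairs of ages, E15.5 with P5 and E18.5 with P8, all 8 genes passed the FDR threshold, as did 75.1% and 73.7% of all genes.

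Per kilobase of annotated exon, the mean levels at P5 ran from 229 CPM per kb for *Gyg* through 118 for *Tcf21*, 104 for *Foxf1*, 71.5 for *Tbx4*, 39.3 for *Plin2*, 17.1 for *Tbx5* and 12 for *Lpl* to 5.69 for *Inmt*. At E18.5 *Tbx4* (73.8 CPM per kb) was above *Foxf1* (64.1) and *Tcf21* (59.5), and at P5 it was below both. *Lpl* has 10478 exonic bases, the most of the 8, and *Inmt* 1600, the fewest.

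The related genes were taken from 7 lists of pathways and markers. Among 12 alveolar fibroblast and lipofibroblast markers, 9 rose and 2 fell across birth, where 35.4% of all genes rose and 35.7% fell. Their median log2 fold change was 1.54, against 0.00 over all genes. The marker sums of endothelial, type 2 and macrophage cells were also higher at P5 than at E18.5, and their part was not tested. *Ces1d*, a carboxylesterase that hydrolyses lipid esters, rose by 2.44 (SE 0.15, FDR = 2.8e-08). *Limch1*, whose product binds non-muscle myosin, rose by 2.28 (SE 0.11, FDR = 5.2e-09). *Lepr*, the leptin receptor gene, rose by 2.13 (SE 0.11, FDR = 1.2e-08). *Pparg*, the gene of the nuclear receptor that drives lipid storage, was at 4.06, 5.05 and 3.63 CPM at E18.5 and 8.77, 7.45 and 10.7 at P5, a log2 fold change of 1.16 (SE 0.25, FDR = 0.0010), and had already risen by 1.5 from E15.5 to E18.5 (FDR = 0.0030). *Pth1r*, the receptor for the parathyroid hormone-related protein that passes from epithelium to lipofibroblasts, went the other way. It was at 97.8, 104 and 115 CPM at E18.5 and 39.9, 43.1 and 45.2 at P5 (log2 fold change -1.22, SE 0.07, FDR = 1.2e-08). *Col13a1*, a collagen gene of matrix fibroblasts, rose by 0.30 (FDR = 0.0031), and *Pdgfra*, a receptor gene of fibroblast progenitors, did not pass the test (-0.19, FDR = 0.081). *Thy1*, which thymocytes also express, rose by 2.26 (SE 0.72, FDR = 0.013). At P8 it was at 37.9 and 65.0 CPM in replicates 1 and 2 against 7.61 in replicate 3. *Pparg* at P8 was at 16.8, 22 and 10.1 CPM in replicates 1, 2 and 3, the order of the adipocyte markers. The part of adipocytes was not tested. From P5 to P8, 2 of these 12 markers rose and 4 fell, where 9.75% of all genes rose and 8.21% fell. The median log2 fold change was -0.11, and 0.10 without P8 replicates 1 and 2, where *Pth1r* changed by -0.52.

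Of 10 genes that act with lipoprotein lipase or in fatty acid uptake, 8 rose from E18.5 to P5, where 35.4% of all genes did. The other 2 did not pass the test, and the median was 0.93. *Gpihbp1*, which anchors the lipase in capillaries, went from 13.4, 11 and 9.78 CPM to 74.7, 77.9 and 82.0 (2.87, SE 0.11, FDR = 1.6e-09). *Cd36*, a fatty acid transporter gene, went from 24.3, 27.9 and 14.5 CPM to 560.2, 548 and 596 (4.76, SE 0.30, FDR = 3.7e-08). *Angptl4*, an inhibitor of the lipase, rose as well, by 1.5 (SE 0.10, FDR = 6.6e-08). Capillary endothelium expresses *Gpihbp1* and *Cd36*, and macrophages express *Cd36*. The markers of both cell types moved with these genes, the endothelial sum from at most 1048 CPM at E18.5 to at least 1944 at P5 and the macrophage sum from at most 17.7 to at least 104, and their part was not tested. *Fabp4*, a fatty acid binding protein gene of fat and endothelium, did not share this pattern of close replicates, with 4.09, 19.5 and 94.8 CPM at P5 and 199, 375 and 11.9 at P8 in the order of the adipocyte markers. Its change from E18.5 to P5 was 5.56 (SE 1.38, FDR = 0.0030) and, without P5 replicate 3 and P8 replicates 1 and 2, 3.83 (SE 0.67, FDR = 6.4e-04).

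Of 12 genes of the lipid droplet coat and of lipid turnover, 9 rose from E18.5 to P5, where 35.4% of all genes did. The other 3 did not pass the test, and the median was 1.42. *Plin1*, the perilipin of adipocytes, had 0.514, 3.67 and 15 CPM at P5 and at most 0.0616 CPM at E18.5, and it was at 51.0, 91.3 and 2.68 CPM at P8 (E18.5 to P5 7.91, SE 1.92, FDR = 0.0027). Like *Fabp4* it followed the adipocyte markers, whereas *Plin2* varied from 154 to 163 CPM at P8 and was lowest by only a little in replicate 3. The lipid hydrolysis genes *Lipe*, *Mgll* and *Abhd5* rose by 1.51 (FDR = 0.0011), 1.47 (FDR = 7.8e-08) and 1.38 (FDR = 9.2e-09). *Mgll*, which encodes monoglyceride lipase, and *Abhd5*, which encodes an activator of triglyceride lipase, had close replicates at P5, at 156, 152 and 158 and at 54.8, 51.9 and 54.9 CPM. Leaving out P5 replicate 3 and P8 replicates 1 and 2 gave 7 genes that rose and 1 that fell, of 10 tested. From P5 to P8, 4 of the 12 rose, where 9.75% of all genes did. Without P8 replicates 1 and 2, where 1.35% of all genes passed in either direction, edgeR called none, with 2 under an unadjusted p of 0.05.

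**Figure D5:**
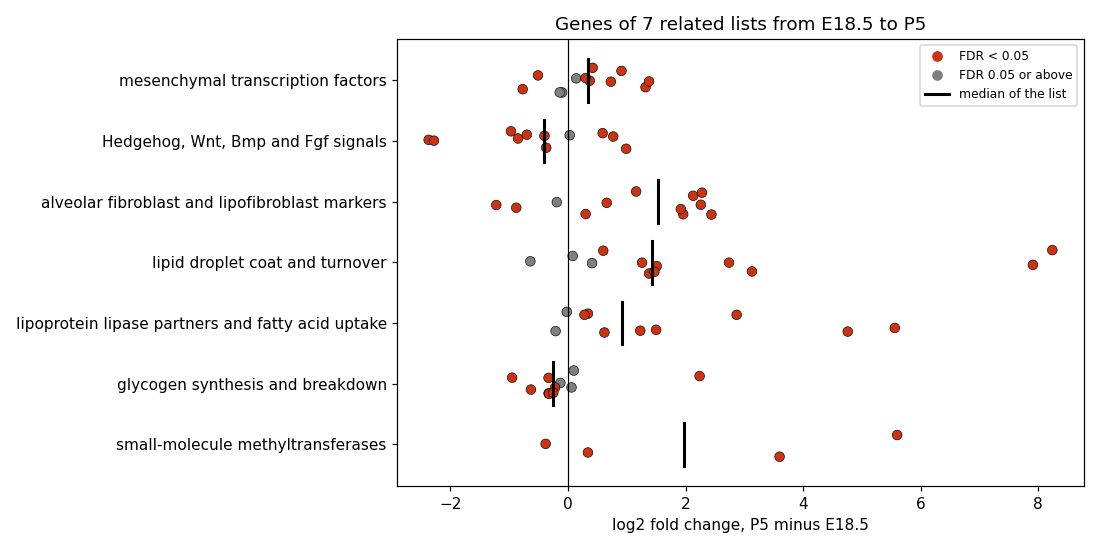
Log2 fold change, P5 against E18.5 (horizontal axis) of the genes of 7 related lists (rows), 1 point per tested gene, red where edgeR's FDR was under 0.05. Black lines are the medians, which run from -0.40 for the signals list to 1.97 for the 4 tested methyltransferases.

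*Gyg* was set beside a list of glycogen genes. Of 11 tested, 1 rose and 7 fell across birth, with a median of -0.25, where 35.4% of all genes rose and 35.7% fell. *Gys1*, the glycogen synthase gene that extends the chains begun by glycogenin, fell from 63.6, 65.2 and 60.3 CPM to 30.8, 31.2 and 30.4 (-0.95, SE 0.09, FDR = 1.2e-06), while *Pygm*, a glycogen phosphorylase gene of muscle, rose by 2.24 (SE 0.30, FDR = 2.3e-05). Among 4 tested small-molecule methyltransferase genes, 3 rose and 1 fell, beside the same shares of all genes. Their median was 1.97, so *Inmt* was not alone among them.

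Of 12 further mesenchymal transcription factor genes, 7 rose and 2 fell across birth, with a median of 0.33. In this comparison 35.4% of all genes tested rose and 35.7% fell. *Zeb1*, a zinc finger repressor gene, rose from 37.7, 31.2 and 32.3 CPM to 83.6, 81.8 and 81.8 (1.38, SE 0.08, FDR = 3.3e-08). Among 11 genes of Hedgehog, Wnt, Bmp and Fgf signals, 3 rose and 7 fell, with a median of -0.40. Of its Hedgehog genes, mean *Shh* went from 35.3 CPM at E18.5 to 25.7 at P5, *Ptch1* from 300.8 to 174.4 and *Gli1* from 48.8 to 23.6. *Gli2* went from 37.5 to 19.6, and *Hhip* the other way, from 141.9 to 201.6. *Fgf10*, the growth factor gene of branching, fell by 0.40 on the log2 scale (FDR = 0.0045), and *Wnt2* did not pass the test (0.03, FDR = 0.76), as *Tbx4* did not. From P5 to P8, 1 of the 12 factor genes rose and 1 fell, and of the 11 signal genes 2 rose and 2 fell. Over all genes 9.75% rose and 8.21% fell. Without P8 replicates 1 and 2, where 1.35% of all genes passed, edgeR called none of the 12 and none of the 11 past the FDR threshold, and 1 and 4 of them were under an unadjusted p of 0.05.

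The genes most like each of the 8 over the 12 libraries, by Pearson's r of log2 CPM among 10621 genes with a mean of at least 10 CPM, are a description, as all points share 4 ages and their litters. Most of the genes named were not kept with Spearman's rank correlation, as given at the end. *Tcf21* was most like *Nhlrc2* (r = 0.984), *Mxd4* (0.979) and *Chmp5* (0.978), and *Foxf1* most like *Mark1* (0.978), *Scarf2* (0.977) and *Rassf1* (0.974). *Tbx4* was most like *Kctd18* (0.967), *Acadsb* (0.939) and *6820431F20Rik* (0.929), and *Tbx5* most like *Selenon* (0.972), *Bmt2* (0.963) and *Zfp277* (0.961). *Plin2* was most like *Cd68* (0.988), *Mrc1* (0.986) and *Prex1* (0.985), of which *Cd68* and *Mrc1* are genes of macrophages and *Mrc1* is 1 of the 5 macrophage markers above. Among the genes most like *Lpl* were *Man1a* (0.994) and *Nckap1l* (0.988), a gene of blood cells. *Inmt* was most like *Klf10* (0.994), *Atp9a* (0.993) and *F3* (0.993), and *Gyg* most like *Bnip3l* (0.981), *Ppp3r1* (0.979) and *Dennd5a* (0.979). Among the 8 themselves, r was highest for *Plin2* with *Lpl* (0.97) and *Tcf21* with *Gyg* (0.96) and lowest for *Tbx5* with *Lpl* (-0.95).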

How the data were processed

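Bulk lung RNA was prepared with TruSeq kits and sequenced as 101-nt read pairs. The authors aligned reads to mm10 with TopHat2 2.1.1 and Bowtie2 2.3.4, counted them on Gencode genes with HTSeq 0.10.0, and deposited raw counts of 16152 genes and CPM of 51825 genes. The authors' CPM divide by mapped reads (48436716 to 62279460 per library). Multiplied back, 100% of the CPM gave whole reads within 0.01, equal to the deposited counts for the genes of both tables. The count test on these reads called 496, 4376, 476 and 5263 of 16214 genes past both cutoffs from E15.5 to E18.5, E18.5 to P5, P5 to P8 and E15.5 to P8, and the same number of the 8 genes in each.

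Counts were tested with edgeR 4.0.16 (TMM, quasi-likelihood, 1 fit of 12 libraries grouped by the age in the labels) over 15994 genes that reached 1 CPM in 3 or more libraries. Genes past FDR 0.05 and an absolute log2 fold change of 1 passed both cutoffs. SE is the absolute log2 fold change over the root of F. The script was tested on simulated data. Alternatives used DESeq2 1.42.0, limma 3.58.1 with log2(CPM + 1), other scalings, no filter, a replicate block and left-out libraries. Fits without several libraries were chosen after seeing the data.

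The members and lists were chosen with earlier results of these data known. Named genes are the 8, the 3 most like each (Pearson's r of log2 CPM, prior count 2, mean of at least 10 CPM), up to 4 per list with the largest change past both cutoffs from E18.5 to P5 at a mean of at least 10 CPM, and 11 genes always named. One gene that this rule names is not reported here. Positions and exon lengths are from GENCODE vM21 (GRCm38). Levels of PSI, the share of transcripts that include a spliced segment, were deposited too but not used, as no event was paired with the 8 genes here.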

Additional observations from a re-analysis of the deposited data

How the results depend on the processing

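The number of genes past both cutoffs stayed at 0, 3, 0 and 2 (E15.5 to E18.5, E18.5 to P5, P5 to P8 and E15.5 to P8) under the other tools, scalings and filters fixed at the start, except that limma on log2(CPM + 1) gave 2 from E18.5 to P5. Leaving out 1 library gave 2 to 3 genes past both cutoffs from E18.5 to P5 and 0, 0 and 2 in the other comparisons. By FDR alone 7 passed from E18.5 to P5, 4 from P5 to P8 and 7 from E15.5 to P8. From P5 to P8 this FDR count was 3 with DESeq2 size factors, where *Tbx4* was lost, and 2 in the fit of those ages only, where *Tbx4* and *Lpl* were lost, and it ran from 0 to 6 with 1 library left out. The log2 fold change of *Tbx4* from E18.5 to P5 reversed with library size only (-0.03) and limma (-0.05). With P8 replicates 1 and 2 left out, that of *Tbx5* from P5 to P8 was 0.02 and that of *Tbx4* from E15.5 to P8 was 0.20, and 0.21 without P5 replicate 3 as well. The cause was not tested. With 1 library left out, the log2 fold change of *Tcf21* from E15.5 to E18.5 ran from -0.04 to 0.21, that of *Inmt* from -0.36 to 2.24, that of *Tbx4* from -0.01 to 0.07 (E18.5 to P5) and from -0.20 to 0.04 (E15.5 to P8). Of the 384 such values, 359 kept their direction and side of the threshold, as did 249 of 255 under the other tools, scalings, filters and fits. Same-numbered replicates did not deviate together (r from -0.343 to 0.301 over 18 pairs), and the replicate block left the counts at 0, 3, 0 and 2. Of the 24 genes most like the 8, 3 were kept with Spearman's rank correlation and 17 with log2(CPM + 1). Depth limits *Inmt* before birth, at 0 to 15 reads a library.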
